A study of Schizosaccharomyces pombe with 4 samples.

Results

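The genes described here are 7 fission yeast (Schizosaccharomyces pombe) genes named meu, for meiotic expression upregulated: meu6, meu7, meu15, meu25, meu29, meu31 and meu34. They were chosen by name because their transcripts had read higher in diploids that lack the histone variant H2A.Z, so their genotype differences are given as a description with no test. Each had 1 probe set with 1 gene symbol, among 2899 named genes on 4999 probe sets. In the reference gene table meu7 also carries the name aah4 and meu34 the name mug145.

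The study followed messenger RNA in h+/h- diploids induced to enter meiosis by withdrawal of nitrogen. The pht1 deletion carried pht1D::ura4+/pht1D::ura4+ and ura4-D18/ura4-D18, and was sampled at 3 h and at 1.5 h. Wild type carried neither of these alleles and was sampled at the same times. Both genotypes carried ade6-210/216, his5-303/+ and leu1-32/+, and each of the 4 groups was 1 Affymetrix array. The deletion therefore differs from wild type at ura4 as well as at pht1, and the contribution of each cannot be told apart.

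H2A.Z, encoded by pht1, replaces the ordinary H2A in a share of nucleosomes, often beside promoters, and is placed there by the SWR1 complex. Fission yeast cells starved of nitrogen leave the mitotic cycle and switch on meiotic genes in waves, first under the transcription factor Ste11 and the RNA-binding protein Mei2, then under the forkhead factor Mei4, whose targets serve the divisions and spore formation. The meu genes were collected as transcripts that accumulate in meiosis, so they share a timing and not a biochemical function. Their products range from a homologous pairing factor (Meu13) to a coat protein at the edge of the growing spore membrane (Meu14) and a spore wall protein (Meu10). Among the genes described here, meu7 encodes a homologue of alpha-amylase, an enzyme that cuts starch-like glucans.

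Values are log2 signals from RMA, which adjusts for background, equalizes the distribution of probe intensities between arrays and combines the probes of each set. Each value is thus relative to the other transcripts on its array. For the deleted gene itself, pht1, the signal was 7.36 and 7.37 in the deletion at 3 h and 1.5 h, against 12.86 and 12.70 in wild type. A level 1 log2 unit above the higher deletion value, 8.37, serves here as the level of an empty probe set: where wild type read under it, the difference is given as at least the deletion value minus 8.37. The floor of an array was its 25th percentile, between 10.08 and 10.13. A difference was counted as 2-fold when it reached 1 log2 unit and the higher array lay above its floor. The difference between a pair of arrays had an SD of 0.22 log2 units, taken over the 2268 genes above the floor at both times. This SD came from how far the genotype difference changed between the times. It holds true interaction as well as noise, and with 1 array a group nothing else measures the error of a single gene. Of 8 markers of meiotic entry and progression, 7 and 5 lay above the floor at 3 h in the deletion and wild type, and 3 and 2 at 1.5 h.

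Higher signal in the deletion fell into a pair of sizes. In 5 members, meu31, meu7, meu6, meu15 and meu25, wild type lay under the floor on both arrays and the deletion above it on both, with differences of at least 3.12 log2 units at 3 h and of at least 2.01 at 1.5 h. The other 2, meu29 and meu34, lay above the floor on all 4 arrays and differed by 1.08 and 1.07 at 3 h and by 0.76 and 0.21 at 1.5 h.

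For meu31, the log2 signal at 3 h was 13.11 in the deletion and 8.71 in wild type, a difference of 4.40 or 21.1-fold. At 1.5 h it was 12.30 in the deletion and 8.10 in wild type. Wild type then read below the empty level, so the difference was at least 3.92, or at least 15.2-fold. Both deletion arrays lay far above both wild-type arrays.

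For meu7, the amylase homologue, the 3 h signal was 13.41 in the deletion and 9.16 in wild type, a difference of 4.26 or 19.1-fold. At 1.5 h it was 12.87 in the deletion and 8.85 in wild type, a difference of 4.02 or 16.2-fold. Of the 5 members with a dim wild-type signal, meu7 alone stayed above the empty level on both wild-type arrays, so its fold differences are measured on both sides.

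For meu6, the 3 h signal was 12.76 in the deletion and 8.74 in wild type, a difference of 4.02 or 16.2-fold. At 1.5 h it was 11.66 in the deletion and 7.88 in wild type, a difference of at least 3.28. The groups did not overlap, and within each genotype the 3 h array was the higher one.

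For meu15, the 3 h signal was 11.71 in the deletion and 8.01 in wild type, and the 1.5 h signal was 10.91 in the deletion and 7.72 in wild type. Both wild-type values are in the range of an empty probe set. The differences were thus at least 3.33 (10.1-fold) at 3 h and at least 2.53 (5.79-fold) at 1.5 h.

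For meu25, the 3 h signal was 11.49 in the deletion and 8.25 in wild type, and the 1.5 h signal was 10.38 in the deletion and 8.29 in wild type. Wild type again read under the empty level at both times. The differences were at least 3.12 (8.68-fold) at 3 h and at least 2.01 (4.02-fold) at 1.5 h.

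The meu29 transcript gave a clear signal in both genotypes. At 3 h it read 12.13 in the deletion and 11.04 in wild type, a difference of 1.08 or 2.12-fold. At 1.5 h it read 11.39 in the deletion and 10.62 in wild type, a difference of 0.76 or 1.70-fold, under the 2-fold mark but above the 0.22 spread.

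The meu34 transcript read 11.25 in the deletion and 10.17 in wild type at 3 h, a difference of 1.07 or 2.10-fold. At 1.5 h it read 10.62 in the deletion and 10.41 in wild type, and this difference of 0.21, or 1.15-fold, did not exceed the 0.22 spread. For meu34 the label of genes raised without H2A.Z therefore rests on the 3 h arrays, where the difference just passed 2-fold and wild type lay just above its floor. At 1.5 h the arrays do not resolve a difference.

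**Figure D1:**
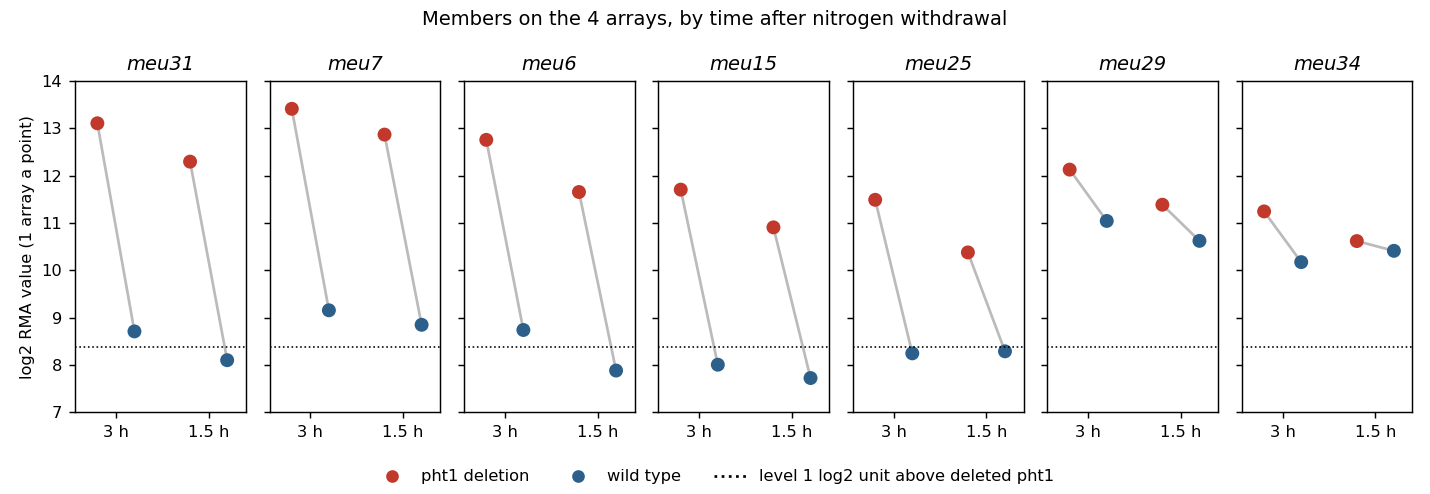
Log2 RMA value of each member on the 4 arrays, with 3 h left of 1.5 h, the pht1 deletion in red, wild type in blue, and a dotted line at 8.37, the level 1 log2 unit above the deleted pht1 probe set. In the first 5 panels both deletion points lie above 10 and both wild-type points below 9.2; meu29 and meu34 read above 10 on all arrays.

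At 3 h all 7 members exceeded wild type by 2-fold or more in the deletion, a size that 1.88% of the 2337 genes past the floor reached. At 1.5 h 5 of the 7 were, where 2.57% of 2331 genes were, and the same 5 were 2-fold higher at both times, as 0.97% of 2268 genes were. Since the members were chosen on this contrast, these counts say nothing beyond the choice. In each of the 7 the deletion at 1.5 h also read above wild type at 3 h, by 3.71 for meu7, 3.59 for meu31, 2.92 for meu6, at least 2.53 for meu15 and at least 2.01 for meu25, and by 0.44 for meu34 and 0.34 for meu29. Both deletion arrays thus lay above both wild-type arrays in 7 of 7 members, where 20.5% of 2400 genes had that order. The choice of the members favours this order too, so this count is a description only.

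**Figure D2:**
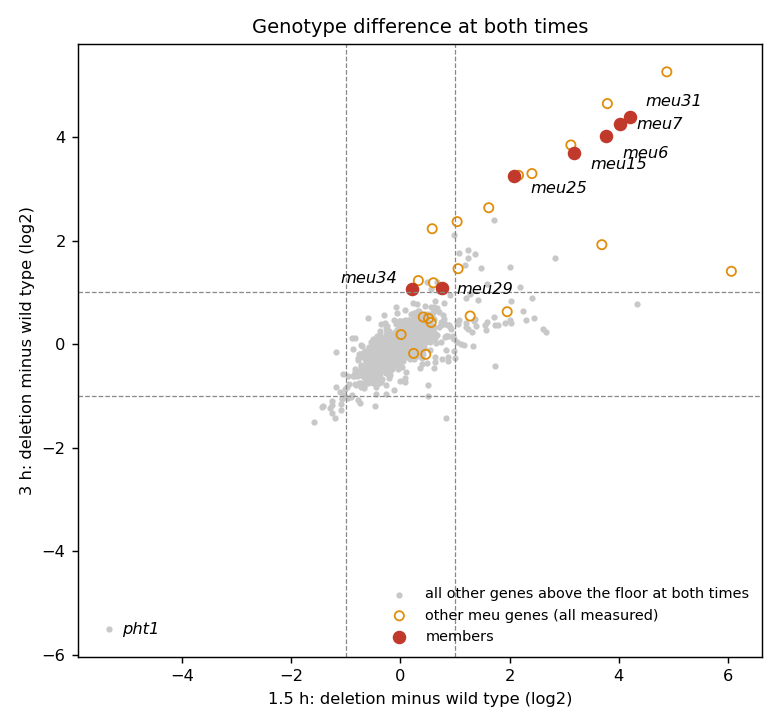
Genotype difference in log2 units, deletion minus wild type, at 1.5 h (x axis) and 3 h (y axis), with members in red, the 21 other measured meu genes as open orange circles and all other genes above the floor at both times in grey; dashed lines mark 2-fold. The 5 members with a dim wild-type signal lie along the upper right among other meu genes, meu29 and meu34 sit near 1 on the y axis, and the deleted pht1 is the point at the lower left.

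Between 1.5 h and 3 h every member differed in the deletion by more than the 0.22 spread, with the higher signal at 3 h. The median difference over 2328 genes was 0.001. The share of all genes past that spread is not given, so the count is a description only. These differences in the deletion, 3 h minus 1.5 h, were 1.11 for meu25, 1.10 for meu6, 0.81 for meu31, 0.80 for meu15, 0.74 for meu29, 0.63 for meu34 and 0.54 for meu7. Thus 2 of 7, meu25 and meu6, were at least 2-fold higher at 3 h than at 1.5 h, where 2.36% of 2328 genes were. No member was 2-fold lower, as 0.473% of these genes were. In wild type the values were smaller in each case. They were 0.86 for meu6, 0.61 for meu31, 0.42 for meu29, 0.31 for meu7 and 0.28 for meu15, and they were -0.04 for meu25 and -0.24 for meu34. None of the 7 reached 2-fold in wild type, where 2.96% of 2330 genes did, and none was 2-fold lower, as 0.386% were. In wild type only meu29 and meu34 lay above the floor. The values of meu15 and meu25 were under the empty level at both times, and those of meu6 and meu31 at 1.5 h.

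A time effect common to both genotypes was tested with limma, with genotype as an additive term, on 2314 genes. After Benjamini-Hochberg adjustment it called 0 members and 0.0% of all genes in either direction, with 527 genes (22.8%) at an unadjusted p under 0.05 by limma. Of the members, meu29 and meu34 lay above the floor in both genotypes. The time effect (3 h minus 1.5 h) was 0.58 for meu29 (SE 0.11, adjusted p = 0.107 by limma), higher at 3 h in both genotypes, and 0.19 for meu34 (SE 0.24, adjusted p = 0.66 by limma). The other 5 entered the test through their deletion arrays alone, with both wild-type arrays under the floor, so no effect common to both genotypes is read from their adjusted p-values by limma, which ran from 0.0714 for meu6 to 0.387 for meu25. Each gene has 1 residual degree of freedom in this fit, which holds array noise and any true difference between the genotypes in change over time. The spread is thus not one between cultures. The result for meu29 depends on the scaling: after quantile normalization limma called it, with adjusted p = 0.0479.

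**Figure D3:**
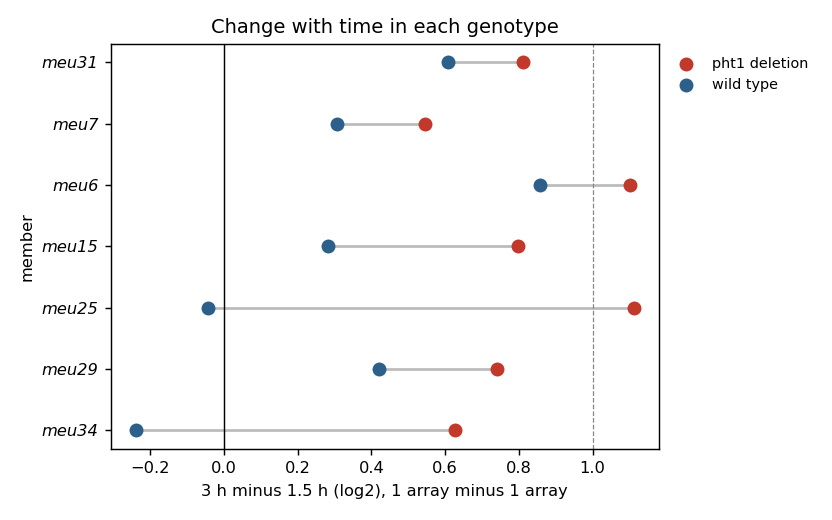
Change of each member from 1.5 h to 3 h, as the 3 h value minus the 1.5 h value in log2 units, in the deletion (red) and in wild type (blue), each 1 array minus 1 array; the dashed line marks 2-fold. The red point lies right of the blue one in all 7 rows, with the widest gaps for meu25 and meu34.

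The genotype difference was larger at 3 h than at 1.5 h in all 7 members, where it was larger in 53.7% of 2268 genes. Since the members were chosen on the genotype difference, this count is a description only. The excess was 1.15 for meu25, 0.87 for meu34, 0.52 for meu15, 0.32 for meu29, 0.25 for meu6, 0.24 for meu7 and 0.20 for meu31. Its SD over the same 2268 genes was 0.32, which meu25, meu34, meu15 and, narrowly, meu29 exceeded. The share of all genes past this SD is not given. No residual degree of freedom is left to test it, and the wild-type signal of meu6, meu15, meu25 and meu31 lay near the empty level at 1 or both times, so their excess is not measured on both sides.

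The other meu genes give the wider setting, and 21 more were measured under a current or older meu name. At 3 h, 10 of the 13 past the floor reached a 2-fold higher signal in the deletion and 0 were 2-fold lower. Over all genes these shares were 1.88% and 0.856%. Only bgs2, isp3, meu10, meu13 and meu23 lay above the floor in both genotypes at 3 h. They differed by 1.19, 1.41, 1.92, 0.63 and 0.42. The rest of the 13 passed the floor through the deletion array alone, which favours a higher signal in the deletion. The median of the 13 was 2.23, against -0.0085 over all genes. At 1.5 h, 7 of the 8 above the floor were 2-fold higher and 0 were lower. Over all genes these shares were 2.57% and 0.901%. The median of the 8 was at least 2.76 against -0.03. The 7 passed the floor at 1.5 h through the deletion array alone. Only bgs2 lay above the floor in both genotypes at that time, and it differed by 0.61. The genotype difference was larger at 3 h in 13 of the 21, and in 5 of the 8 above the floor at both times. These genes were part of the earlier results of the same arrays and are no independent evidence of the direction.

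Several of them had differences of the members' size or larger. The meu17 signal was 13.34 in the deletion and 8.08 in wild type at 3 h, and 12.67 and 7.79 in these genotypes at 1.5 h, at least 4.96 and 4.30 higher. The gene mde5 (meu30), of an alpha-amylase homologue, was at least 4.03 and 3.12 higher at 3 h and 1.5 h. The hexose transporter gene ght6 (meu12) was at least 3.60 and 2.40 higher, meu14 at least 3.15 and 2.05, mug97 (meu33) at least 2.77 at 3 h and, under the floor, 1.51 at 1.5 h, and crp79 (meu5), the gene of a poly(A)-binding protein, at least 2.46 at 3 h. The meiotic septin gene spn5 (meu28) was higher by 2.23 at 3 h, and bgs2 (meu21), a glucan synthase gene of the spore wall, by 1.19.

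In 8 of the 21 the measured genotype difference was larger at 1.5 h, among them isp3, meu10 and meu13. The spore coat gene isp3 (meu4) was higher by 1.41 at 3 h and by at least 5.68 at 1.5 h. The spore wall gene meu10 was higher by 1.92 at 3 h and by at least 3.24 at 1.5 h, and meu13, the pairing factor gene, by 0.63 at 3 h and 1.96 at 1.5 h. In wild type these 3 read higher at 3 h than at 1.5 h by 5.11, 3.19 and 2.89, with isp3 and meu10 under 8.37 at 1.5 h, while the members' wild-type values differed by at most 0.86. Under the floor at both times, meu27 was higher by at least 1.47 at 3 h and 0.20 at 1.5 h, meu22 by at least 0.89 and 0.45, and meu1 by at least 0.91 at 3 h. The meu26 difference was 0.55 at 3 h and, under the floor, at least 0.49 at 1.5 h. A pair of meu names, meu9 and meu24, belong to wtf3 and wtf11, members of a family of near-identical meiotic driver genes whose copies may share probes, and these differed by 0.50 and 0.19 at 3 h. At 3 h atd3 (meu8) and meu32 were the only 2 of the 21 with a lower signal in the deletion, by -0.19 and -0.18, both under the floor.

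**Figure D4:**
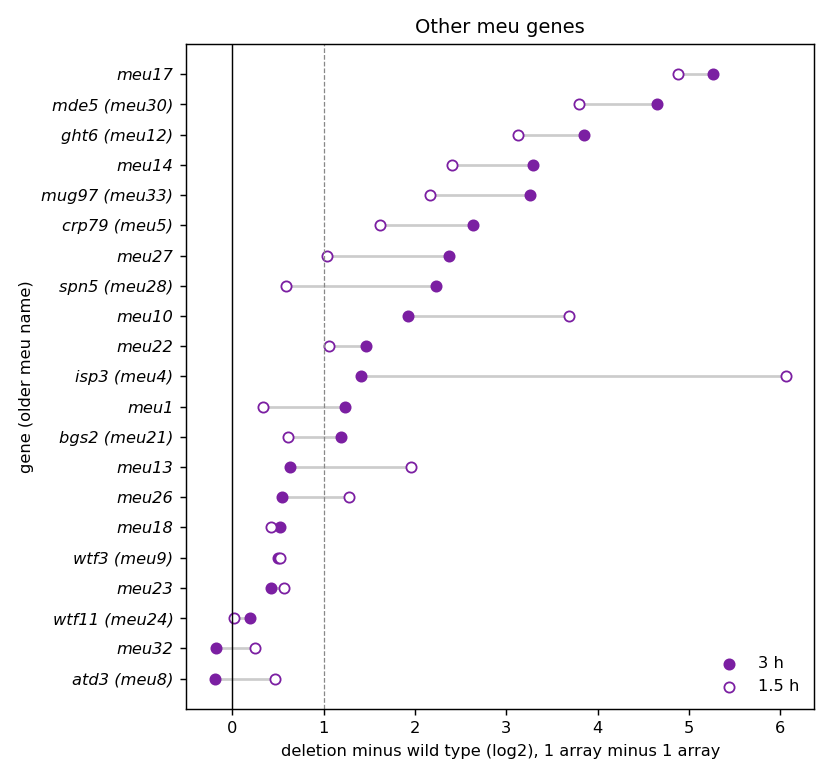
Genotype difference (deletion minus wild type, log2) of the 21 other measured meu genes at 3 h (filled) and 1.5 h (open), ordered by the 3 h value, with older meu names in parentheses; the dashed line marks 2-fold. In 19 of the 21 rows both points lie right of 0, and isp3, meu10, meu13 and meu26 (whose 1.5 h wild-type value lay under 8.37) show the 1.5 h point well to the right of the 3 h point.

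Genes known to depend on Mei4 were also higher in the deletion. Of the 4 above the floor at both times, 3 had a larger genotype difference at 3 h than at 1.5 h, against 53.7% of all genes, with a median excess of 0.51. Without the floor this held for 12 of 13, mostly dim genes. At 3 h, 6 of the 8 above the floor were 2-fold higher and 0 lower (median 1.96), where 1.88% and 0.856% of all genes were. Only spn7, mde10 and cdc25 lay above the floor in both genotypes at 3 h, and differed by 1.73, 0.97 and 0.60. The rest of the 8 passed the floor through the deletion array alone. At 1.5 h, 3 of 4 were higher and 0 lower (median 1.31), where 2.57% and 0.901% of all genes were. Only mde10 and cdc25 of the 4 lay above the floor in both genotypes at 1.5 h, and differed by 1.27 and -0.06. The genes 2-fold higher at 3 h included spo6, a regulator of the second meiotic division, at least 2.43 higher, mde5, spn5 and mde2 (2.18). Of these, mde5 and spn5 also carry meu names. The mei4 transcript itself read 10.45 in the deletion and 9.32 in wild type at 3 h, a difference of 1.12. At 1.5 h it read 9.20 and 8.16 in these genotypes, under the floor in both, at least 0.82 higher.

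Transcripts that the RNA-binding protein Mmi1 marks for destruction in mitotic cells were higher in the deletion too, but with the larger difference mostly at 1.5 h. Of the 6 above the floor at both times, 0 had a larger genotype difference at 3 h than at 1.5 h, against 53.7% of all genes, and the median excess was -1.47. At 1.5 h all 6 passed the floor through the deletion array alone, which favours a large genotype difference at that time. Without the floor the difference was larger at 3 h in 1 of 11. At 1.5 h, 5 of 6 above the floor were 2-fold higher in the deletion and 0 lower (median at least 1.78). Over all genes these shares were 2.57% and 0.901%. The largest differences were in spo5 at 4.33, crs1 at 2.66, mug8 at 1.78 and num1 at 1.77 or more. At 3 h, 1 of 10, mei4, was 2-fold higher and 0 lower (median 0.35), where 1.88% and 0.856% of all genes were. For mei4 wild type lay under the floor. The mmi1 transcript lay under the floor on all arrays and differed by -0.25 at 3 h and -0.09 at 1.5 h.

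Regulators of meiotic transcription had lower median differences than the members, which were chosen on this contrast. Single regulators exceeded meu29 and meu34, among them mei4 at 3 h and pat1 and rep1 at 1.5 h. Of 10 above the floor at 3 h, 1 was 2-fold higher, again mei4, and 0 were lower (median 0.46), where 1.88% and 0.856% of all genes were. Of 8 at 1.5 h, 2 were higher and 0 were lower (median 0.48), where 2.57% and 0.901% of all genes were. The 2 were the kinase gene pat1 at 1.37 and the activator gene rep1 at 1.35. For rep1 wild type lay under the floor at 1.5 h. The ste11 difference was 0.10 at 3 h and 0.99 at 1.5 h. The copper-dependent meiotic regulator gene cuf2, under the floor in both genotypes, was at least 1.19 higher at 3 h.

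In the alpha-amylase family, 4 genes were measured with meu7 among them, and the genotype difference was not common to the family. Beside meu7 and mde5, aah2 differed by 0.80 at 3 h and 0.24 at 1.5 h, and aah3 by -0.24 and -0.12. The aah2 and aah3 signals lay above the floor on all 4 arrays, between 10.50 and 11.96, unlike the wild-type signals of meu7 and mde5.

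The 5 genes nearest to the members' median profile were found by Euclidean distance over the 4 arrays, after each gene was centred on its own mean. Wild type read under 8.37 at both times in all 5, so their distances include values near the empty level. They were ght6 (distance 0.31), pma2 (0.52), meu14 (0.60), mug97 (0.78) and mde5 (0.84), and 4 of the 5 carry a current or older meu name. The exception, pma2, is the gene of a second plasma membrane proton pump and read 10.80 in the deletion and 7.47 in wild type at 3 h, and 10.02 and 7.45 in these genotypes at 1.5 h. Of the members, meu15 lay closest to that profile at 0.06, and meu29 and meu34 lay farthest at 2.49 and 2.81.

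Genes near the members on the chromosome were described through the nearest gene on each side that had a named probe set. These were 14 neighbours, 6 of them directly adjacent and 8 between 2 and 4 protein-coding positions away, so genes between them and the members were not analysed here. At 3 h, 1 of the 14 was 2-fold higher, where 1.88% of all genes were, and 0 were lower, where 0.856% were. At 1.5 h 0 were 2-fold different, where 2.57% of all genes were higher and 0.901% lower. That gene was mug125, which lies 2 positions from meu31 and read 10.48 in the deletion and 9.02 in wild type at 3 h, a difference of 1.46, and 9.40 and 8.67 in these genotypes at 1.5 h, a difference of 0.74. On its other side, the phospholipase gene plb1 differed by 0.07 and 0.05 at 3 h and 1.5 h. The other neighbours ranged at 3 h down to uds1, beside meu25, at -0.88. On the other side of meu25, the DASH complex gene ask1 differed by -0.65 at 3 h and -0.61 at 1.5 h. Directly beside meu6, the gene of the histone H3 methyltransferase Clr4 differed by 0.05 and -0.40.

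**Figure D5:**
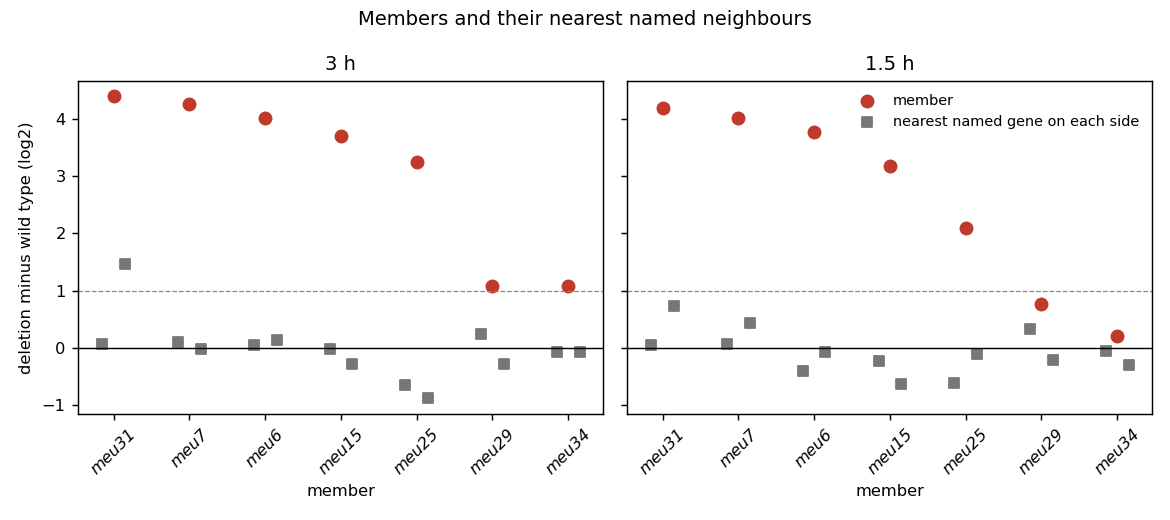
Genotype difference (deletion minus wild type, log2) of each member (red circles) and of the nearest gene on each side with a named probe set (grey squares) at 3 h (left) and 1.5 h (right); the dashed line marks 2-fold. All squares except mug125 beside meu31 at 3 h lie under the dashed line.

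Markers of spore formation shared the members' direction between the genotypes, and isp3 and bgs2 are themselves meu genes. The timing was not shared by isp3, whose genotype difference was larger at 1.5 h. All 4 measured, isp3, bgs2, eng2 and agn2, were higher in the deletion at both times: they ranged from 11.74 to 14.51 in the deletion and from 10.02 to 13.11 in wild type at 3 h, and from 10.99 to 14.05 in the deletion and 7.99 to 11.62 in wild type at 1.5 h. The 4 measured markers of growing cells had medians of 10.50 in the deletion and 10.83 in wild type at 3 h, and of 10.72 in the deletion and 11.31 in wild type at 1.5 h. They did not move one way. The mid1 signal was 9.73 in the deletion and 10.88 in wild type at 3 h, and 10.25 and 11.35 in these genotypes at 1.5 h. In the same order, etd1 read 9.17 and 9.78 at 3 h and 10.76 and 10.69 at 1.5 h. The cdc18 values were 11.27 and 10.77 at 3 h and 10.68 and 11.26 at 1.5 h. Those of cig2 were 13.67 and 13.24 at 3 h and 13.08 and 12.32 at 1.5 h. In wild type cig2 thus read higher at 3 h, and so did cdc18 in the deletion but not in wild type. Both may therefore not track growth here. In such bulk samples, more cells that express a gene and more RNA per cell cannot be told apart, and the part of the cells' progress through meiosis in the members' differences was not tested.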

How the data were processed

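The authors deposited log2 values, 1 for each probe set on each of 4 arrays, made with RMA per the submitters' processing notes. The sources used here name neither its version nor its parameters. Per the labels' protocols, poly(A) RNA was purified from DNase-treated total RNA and biotin-labelled cRNA was hybridized. Of 4999 probe sets, 2917 had 1 gene symbol, 20 had several and 2062 were unnamed here. Gene identifiers matched 2914 to a RefSeq gene table (assembly ASM294v3), used for names and neighbours only. For 14 genes with several probe sets, that with the highest mean was used. The members and lists were chosen with earlier results of these data known. Named genes are the members, pht1, other meu genes 2-fold different at either time, the 5 nearest profiles, nearest neighbours, up to 4 genes of each other list and the amylase family; ste11, mmi1, cuf2, wtf3, wtf11, atd3, meu32 and the spore and growth markers were added after their values were seen. Limma 3.58.1 (R 4.3.3) was tested on simulated data. Figures were drawn with matplotlib 3.10.9, lowess was run with statsmodels 0.14.6, and the rest with pandas 2.3.3 and numpy 2.4.6 under Python 3.11.15. The number of arrays limits the precision. Promoter motifs were not analysed here. Alternatives covered the floor, fold threshold, scaling, probe set choice, variance model and empty level.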

Additional observations from a re-analysis of the deposited data

Results flagged for a closer look

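In 2 members the change between the times ran in opposite directions in the genotypes. The meu25 signal changed by 1.11 log2 units (3 h minus 1.5 h) in the deletion and by -0.043 in wild type. The meu34 signal changed by 0.63 in the deletion and by -0.24 in wild type. The difference was not tested, each change is 1 array minus 1 array, and the wild-type change of meu25 is within the 0.22 spread and lies between values under 8.37. The wild-type change of meu34 only just passes that spread.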

How the results depend on the processing

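All 84 member differences recomputed after quantile normalization, median centring or lowess kept their sign and moved by at most 0.12 log2 units. With the floor at the array median, 3 members in place of 5 were 2-fold higher in the deletion at 1.5 h, since fewer genes pass that floor. At a 3-fold threshold, 0 members in place of 2 were higher at 3 h than at 1.5 h in the deletion. With the empty level 0.5 log2 units above the deleted pht1, 1 member in place of 4 had a wild-type value under it. By limma, the time effect was called for 1 member (meu6, 0.98) and 69 genes without the floor, and for 3 members (meu6 at 0.92, meu29 at 0.59, meu31 at 0.64) and 118 genes after quantile normalization, against 0 members and 0 genes as reported; the cause was not tested. Of these members, meu6 and meu31 entered the test through their deletion arrays alone. Without the intensity trend, after median centring and with the floor at the array median limma called 0 genes, with 505, 530 and 342 at an unadjusted p under 0.05. No paired analysis was possible because each group holds 1 array and the labels carry no replicate number. Signals near the empty level limit the wild-type values of meu6, meu15, meu25 and meu31.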
